A study of Mus musculus with 2 samples.

Results

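Laminins, their integrin receptors and the proteins that tie both into the basement membrane were read in 2 three-dimensional mouse skin models, 1 built from Itih5 knockout cells and 1 from wildtype cells. The family was given as a list of 39 genes, and a gene was a member if the platform annotation gave it a probe set with that symbol and no other. Of the 39, 38 had such a probe set, out of 22180 genes named in this way on the array, and Itga10 is not analysed here. Both models hold keratinocytes and fibroblasts from the skin of adult mice and carry a day 7 mark in their titles. The knockout model is of genotype Itih5 knockout and the wildtype model of genotype wildtype, the mice of both were untreated, and the number of mice behind each model is not stated. The primary cells had been passaged until they grew without a collagen coating. The study concerns ITIH5, a heavy chain of the inter-alpha-trypsin inhibitor family that binds hyaluronan, and the comparison asks how expression differs between the 2 genotypes.

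The basement membrane is the thin sheet of matrix between epidermis and dermis. Laminins, each made of an α, a β and a γ chain, polymerise on the cell surface, nidogens and perlecan link them to type IV collagen, and integrins, pairs of an α and a β subunit, hold cells to the sheet from either side. Basal keratinocytes attach through hemidesmosomes, in which integrin α6β4 grips a laminin with α3 and β3 chains outside the cell and the plakins plectin and dystonin anchor keratin filaments inside. Fibroblasts use other pairs, mostly with β1 or αv, to bind collagens, fibronectin and tenascin.

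Each model was hybridised to 1 array, so a difference cannot be set against replicate error and no test was run. Values are array intensities on a linear scale, and differences are log2 intensities of the knockout minus the wildtype model. Nearly all deposited values had lost their decimal point, which was restored by calculation. The point of 32 members could be restored with a probability of at least 0.95, and 6 (Lama4, Lamb1, Lamc1, Itga5, Itgb1 and Itgb4) stayed undecided. Genes are called expressed here where at least 1 model reached 46.4, the median intensity of all restored probe sets, and 29 members did. Where the lower value lies under that threshold a fold depends on the background of the arrays (5th percentiles 21.4 in the knockout model, against 21.4 in the wildtype model), so the 2 intensities are given without one. As a gauge of scatter between probe sets, the log2 differences of 2 expressed probe sets of the same gene lay a median of 0.24 apart over 441 genes. Both probe sets are read on the same 2 arrays, so this gap holds no variation between models. Itih5 itself read 30.4 in the knockout model, against 29.8 in the wildtype model, below the threshold in both. The deleted stretch of Itih5 is not stated, so these values check neither genotype.

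Expressed members of the mesenchymal side of the family read higher in the knockout model, mostly by less than 2-fold. For Itga8 and Itga11 the filter fixed that direction, since only the knockout model reached the threshold. Members of the hemidesmosome were split. Itga6, Lama3 and Lamb3 read lower and Plec and Dst higher, each by less than 2-fold, and Itgb4, undecided in level, had a difference of 0.16. Of the 29 expressed members, 21 were above 0 and 8 below, with a median of 0.31, where all 12713 expressed genes had a median of 0.04 and 54.2% of them above 0. At least 2-fold higher were 2 members, the nidogen gene Nid1 and the perlecan gene Hspg2, which is 6.90% of 29 against 3.81% of all expressed genes. At least 2-fold lower were 3, Itgb6, Lamc3 and Fras1, which is 10.3% against 3.36% of all expressed genes. With counts this small the shares rest on single genes. In bulk RNA of 2 cell types, fewer cells of a type and less RNA per cell cannot be told apart.

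**Figure D1:**
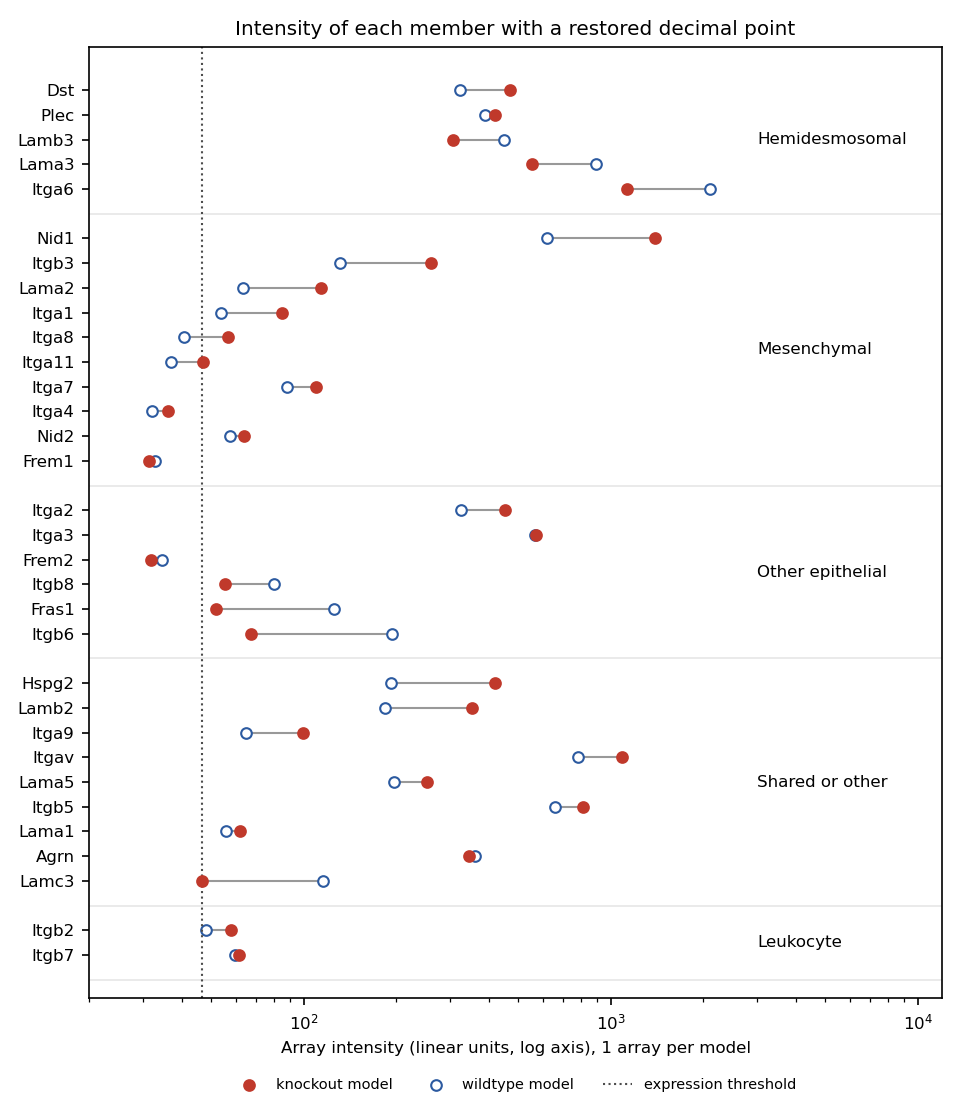
Array intensity (log axis) of the 32 members with a restored decimal point, filled for the knockout and open for the wildtype model, by group, with the expression threshold of 46.4 dotted. Nid1, Hspg2 and Itgb3 lie to the right in the knockout model, and Itga6, Itgb6, Fras1 and Lamc3 to the left.

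Among the laminin chains, the α3 and β3 chains of the hemidesmosomal laminin read lower in the knockout model. Lama3, which encodes the α3 chain, read 556 in the knockout model, against 895 in the wildtype model, 1.61-fold lower. Lamb3, its β3 partner, read 305 in the knockout model, against 448 in the wildtype model, 1.47-fold lower. Both differences, -0.69 and -0.55, are under 2-fold. The Lama3 value rests on a probability of 0.977 for its point, since the wildtype value could also be 89.5, which would make it 6.22-fold higher, whereas the Lamb3 value has 1 possible place on each array.

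The other restored laminin chains read mostly higher. Lama2, the α2 chain of muscle and nerve laminins, read 114 in the knockout model, against 63.2 in the wildtype model, 1.81-fold higher. Lamb2, a β chain that takes the place of β1 in several adult membranes, read 353 in the knockout model, against 183 in the wildtype model, 1.93-fold higher. Lama5, the α chain of the second epidermal laminin, read 252 in the knockout model, against 197 in the wildtype model, 1.28-fold higher. Lama1, a chain of embryonic membranes, was near the threshold on both arrays, with 62.0 in the knockout model, against 55.6 in the wildtype model. Lamc3, the γ3 chain, went the other way, with 46.7 in the knockout model, against 116 in the wildtype model, 2.48-fold lower, and its knockout value sits at the threshold. So of 7 restored laminin chains 4 lay above 0 and 3 below, with a median of 0.16.

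The remaining 3 laminin chains could not be placed. Lama4, the α4 chain of vessels and mesenchyme, has 783 or 78.3 in the knockout model, against 372 in the wildtype model, thus 2.10-fold higher at the likelier place (probability 0.78) or 4.75-fold lower. Lamb1 and Lamc1 encode the β1 and γ1 chains shared by most laminins. For Lamb1 both likely pairs, 76.9 (knockout) against 36.6 (wildtype) and 769 (knockout) against 366 (wildtype), give the same difference of 1.07, with a probability of 0.89 for that difference. For Lamc1 the likeliest pair is 857 in the knockout model, against 454 in the wildtype model, a difference of 0.92 that holds with probability 0.92. These 3 are left out of the counts, and at their likeliest places each would read higher in the knockout model.

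The linkers of the sheet held both of the members that were at least 2-fold higher. Nid1, nidogen 1, which bridges laminin and type IV collagen, read 1389 in the knockout model, against 622 in the wildtype model, 2.23-fold higher, with a probability of 0.969 for these places. Its other probe set, with 1 possible place on each array, read 1429 in the knockout model, against 584 in the wildtype model, 2.45-fold higher. Hspg2, perlecan, a heparan sulfate proteoglycan of the sheet, read 419 in the knockout model, against 192 in the wildtype model, 2.18-fold higher, and the other possible place for its wildtype value, 19.2, would make the gap wider. The paralogue Nid2 did not share the size of the Nid1 difference, with 63.7 in the knockout model, against 57.3 in the wildtype model, and Agrn, the proteoglycan agrin, read 346 in the knockout model, against 361 in the wildtype model.

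Fras1 belongs to a complex with Frem1 and Frem2 that fastens embryonic epidermis to dermis below the dense layer of the sheet. It read 51.8 in the knockout model, against 126 in the wildtype model, 2.42-fold lower, and its knockout value lies near the threshold. Frem1 (31.3 in the knockout, 32.8 in the wildtype model) and Frem2 (31.8 in the knockout, 34.6 in the wildtype model) were below the threshold on both arrays, so the complex is represented here by Fras1 alone. Grip1, an adaptor that carries Fras1 to the cell surface, also read lower, with 145 in the knockout model, against 404 in the wildtype model, 2.78-fold.

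Integrin α subunits of fibroblasts and of collagen binding read higher, by less than 2-fold. Itga1, the α1 subunit for collagen, read 85.2 in the knockout model, against 53.8 in the wildtype model, 1.58-fold higher. Itga2, a collagen receptor subunit of keratinocytes, read 453 in the knockout model, against 325 in the wildtype model, 1.39-fold higher. Itga9, a receptor subunit for tenascin C, read 99.4 in the knockout model, against 64.7 in the wildtype model, 1.54-fold higher. Itgav, the αv subunit of receptors for vitronectin and fibronectin, read 1087 in the knockout model, against 785 in the wildtype model, 1.39-fold higher. These 4 differences run from 0.47 to 0.66. A further Itgav probe set read 34.8 in the knockout model, against 34.1 in the wildtype model, below the threshold in both.

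The other α subunits of mesenchyme differed less, lay near the threshold or could not be placed. Itga7, a laminin receptor subunit of muscle, read 110 in the knockout model, against 88.1 in the wildtype model, 1.25-fold higher. Itga8, which binds nephronectin, read 56.8 in the knockout model, against 40.8 in the wildtype model, and Itga11, a fibroblast collagen receptor subunit, read 47.1 in the knockout model, against 36.8 in the wildtype model, in each case under the threshold in the wildtype model. Itga4, a subunit for fibronectin and VCAM1, was below the threshold on both arrays, at 36.1 in the knockout model, against 32.1 in the wildtype model. Itga5, the fibronectin receptor subunit, is undecided between 812 and 81.2 in the knockout model against 301 in the wildtype model, that is 2.70-fold higher (probability 0.55) or 3.71-fold lower.

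Of the 9 α subunits among the expressed members, Itga6 was the 1 below 0. This α6 subunit of the hemidesmosome read 1132 in the knockout model, against 2101 in the wildtype model, 1.86-fold lower, with 1 possible place on each array. Of all expressed genes, 4.14% had a difference as low or lower. Itga3, which with β1 forms the keratinocyte laminin receptor outside hemidesmosomes, read 571 in the knockout model, against 567 in the wildtype model (probability 0.99, the alternative wildtype value being 56.7). So the 2 laminin-binding α subunits of basal keratinocytes stood at -0.89 for Itga6 and 0.01 for Itga3 on the log2 scale.

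Integrin β subunits that pair with αv lay on both sides of 0. Itgb3, the β3 subunit of the vitronectin receptor, read 259 in the knockout model, against 131 in the wildtype model, 1.97-fold higher. Itgb5, the β5 subunit, read 815 in the knockout model, against 658 in the wildtype model, 1.24-fold higher. Itgb6, an epithelial subunit whose pair with αv activates latent TGF-β, read 67.3 in the knockout model, against 195 in the wildtype model, 2.89-fold lower, the lowest difference among the 29 expressed members. Itgb8, another αv partner that activates latent TGF-β, read 55.5 in the knockout model, against 79.8 in the wildtype model, 1.44-fold lower. With Itgav itself at 0.47, the β partners of αv thus ranged from -1.53 to 0.98.

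The leukocyte subunits Itgb2 (57.9 in the knockout, 48.0 in the wildtype model) and Itgb7 (61.3 in the knockout, 59.7 in the wildtype model) were near the threshold. Itgb1, the common β1 subunit, was undecided in level. Its likeliest pair was 1207 in the knockout model, against 878 in the wildtype model, and a difference of 0.46 held with probability 0.96 over the pairs of places that give it. Itgb4, the β4 subunit of the hemidesmosome, read either 687 in the knockout model, against 617 in the wildtype model or 6872 in the knockout model, against 6168 in the wildtype model, and either way its difference was 0.16, with probability 0.996 for the difference. So the 2 subunits of α6β4 read differently, with Itga6 at -0.89 and Itgb4 at 0.16.

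The plakins inside the hemidesmosome read slightly higher. Plec, plectin, read 419 in the knockout model, against 390 in the wildtype model, 1.07-fold higher. Dst, dystonin, read 469 in the knockout model, against 322 in the wildtype model, 1.46-fold higher. Both genes make several isoforms, of which those of the hemidesmosome are only one kind, and a probe set over the gene does not separate them.

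Promoter sequences are shown for the 2 members that were at least 2-fold higher, Nid1 and Hspg2, and for 2 lower epithelial members, Itgb6 and Lamb3. Lamb3 was 1.47-fold lower, while Lamc3 and Fras1, at least 2-fold lower, are not shown. The 2 sides were thus chosen unevenly, so the 4 windows do not compare higher with lower members. They are the 250 bases upstream of the annotated start in RefSeq's table for mouse build GRCm38.p6, 5′ to 3′ on the gene's strand, with the first listed start used for Itgb6 and Lamb3, which have 2. The windows are chr13:13437352-13437601 on the plus strand for Nid1, chr4:137468553-137468802 on the plus strand for Hspg2, chr2:60722604-60722853 on the minus strand for Itgb6 and chr1:193301744-193301993 on the plus strand for Lamb3. Capitals mark GC boxes, the letters GGGCGG on either strand.
Nid1: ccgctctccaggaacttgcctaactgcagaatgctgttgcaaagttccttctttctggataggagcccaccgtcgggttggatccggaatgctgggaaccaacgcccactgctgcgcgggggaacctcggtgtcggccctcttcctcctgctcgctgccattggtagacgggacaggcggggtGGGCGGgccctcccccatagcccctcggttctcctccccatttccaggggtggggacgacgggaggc
Hspg2: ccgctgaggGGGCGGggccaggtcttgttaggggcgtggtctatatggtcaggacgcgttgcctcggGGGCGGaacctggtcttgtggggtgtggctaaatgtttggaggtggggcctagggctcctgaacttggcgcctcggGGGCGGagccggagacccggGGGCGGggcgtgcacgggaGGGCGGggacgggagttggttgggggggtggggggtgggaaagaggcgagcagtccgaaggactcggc
Itgb6: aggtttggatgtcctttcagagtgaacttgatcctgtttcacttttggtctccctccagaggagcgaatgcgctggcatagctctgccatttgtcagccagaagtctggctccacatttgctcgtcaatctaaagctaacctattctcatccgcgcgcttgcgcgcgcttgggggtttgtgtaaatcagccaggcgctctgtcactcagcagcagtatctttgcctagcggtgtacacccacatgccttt
Lamb3: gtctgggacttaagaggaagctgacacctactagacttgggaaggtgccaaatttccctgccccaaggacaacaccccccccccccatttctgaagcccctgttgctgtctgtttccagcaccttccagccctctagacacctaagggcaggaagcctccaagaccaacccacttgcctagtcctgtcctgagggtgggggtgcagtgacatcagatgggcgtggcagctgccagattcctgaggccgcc
The Hspg2 window held 5 GC boxes and 70.0% G and C, and the Nid1 window 1 GC box and 64.4% G and C. The Itgb6 and Lamb3 windows held 0 GC boxes, with 52.0% and 58.8% G and C. GC boxes are common, being found in 32.7% of all 32851 upstream windows of this length and in 11 of the 26 members with a window. The remaining members had no window. For each motif, members were counted by 1 window each, the first listed. The share of all windows instead counts every listed start of a gene, so the 2 figures differ in unit. On both strands, the AP-1 letters TGANTCA were in 0 of the 26 member windows and in 6.75% of all windows, the TEAD letters GGAATG in 4 and in 12.6%, and the E-box letters CAGGTG in 8 and in 17.2%. GC boxes were marked after the matches of all 4 had been seen, overlapping matches were each counted, and a match or its absence describes these letters only.

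Set side by side, the medians of the hemidesmosomal and the mesenchymal members lay on opposite sides of 0, but the hemidesmosomal members had no common direction. The hemidesmosomal group (Itga6, Itgb4, Lama3, Lamb3, Plec and Dst) had 5 restored members, all expressed, with a median of -0.55 (1.47-fold lower), 3 below 0 and 2 above. The mesenchymal group had 13 listed genes, 12 with a probe set, 10 restored and 8 expressed, and these 8 lay above 0, from 0.15 for Nid2 to 1.16 for Nid1, with a median of 0.57. Itga8 and Itga11 reached the threshold in the knockout model alone, so the filter fixed their direction. The other 2 restored members, Frem1 (-0.07) and Itga4 (0.17), were below the threshold on both arrays. The medians lay 1.12 apart on the log2 scale, a ratio of 2.18. The ranges overlapped, since 4 of the 8 mesenchymal members lay above Dst, the highest hemidesmosomal one. The hemidesmosomal median depends on few genes. With Itgb4 counted at its difference of 0.16, or with Lama3 left out under a minimum probability of 0.99, it was -0.22 and the medians lay 0.79 apart. Lama3 was also lost under 1 of 5 settings of the restoration, where its probability was 0.949. The difference between groups was described over 2 arrays and not tested.

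**Figure D2:**
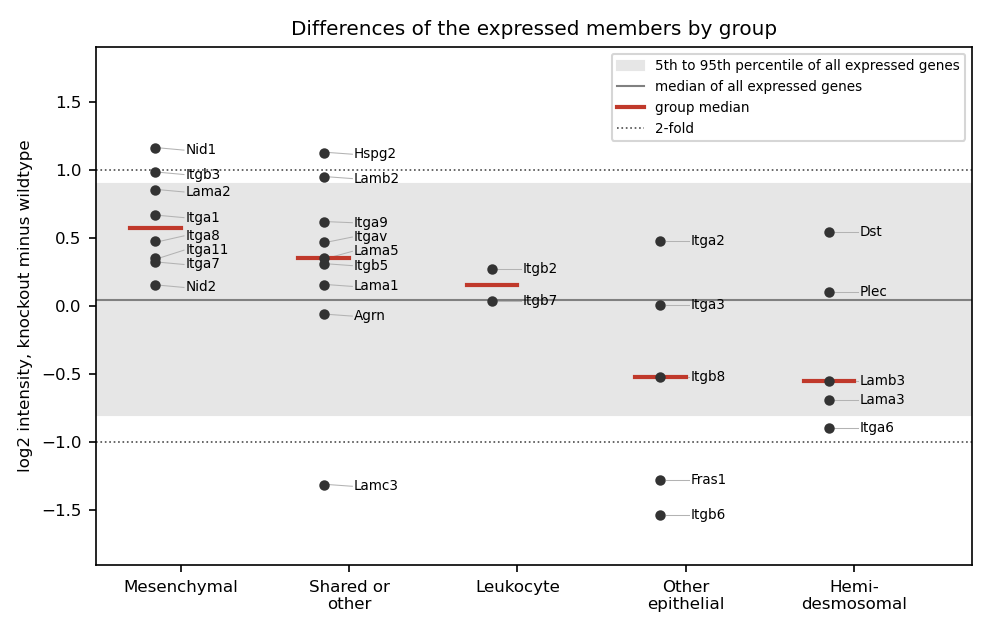
Log2 intensity of the knockout minus the wildtype model for the 29 expressed members, by group, with each group's median as a bar and the 5th to 95th percentile of all expressed genes (-0.80 to 0.90) shaded. Outside the shaded band are Nid1, Hspg2, Itgb3 and Lamb2 above, and Itga6, Fras1, Lamc3 and Itgb6 below.

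The other epithelial members (Itga2, Itga3, Itgb6, Itgb8, Fras1 and Frem2) had 5 expressed genes with a median of -0.52, 2 of them at least 2-fold lower. Members made by both cell types or placed in no side (9 expressed) had a median of 0.35, with Hspg2 at least 2-fold higher and Lamc3 at least 2-fold lower. Over all expressed genes the shares at least 2-fold apart were 3.81% higher and 3.36% lower. Not every gene of keratinocytes lay below 0, since Itga2, Dst, Plec and Lama5 lay above it.

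Markers of the 2 cell types differed along the same line, and their part in the members' differences was not tested. The basal keratinocyte list had 4 of 7 markers restored and expressed, all 4 below 0 and 3 at least 2-fold lower, with summed intensities of 6563 in the knockout model, against 16704 in the wildtype model. Among them the basal keratin gene Krt14 read 4076 in the knockout model, against 9538 in the wildtype model. Of 8 suprabasal markers, 6 were at least 2-fold lower, with sums of 1894 in the knockout model, against 8779 in the wildtype model. Of 10 fibroblast markers, 8 were restored and expressed, all 8 above 0 and 2 at least 2-fold higher, with sums of 13911 in the knockout model, against 7541 in the wildtype model. So the fibroblast list's median of 0.87 was larger than the mesenchymal members' 0.57, and the basal list's median of -1.12 lower than the hemidesmosomal members' -0.55. Of 6 endothelial markers 2 were expressed, Kdr at 87.4 in the knockout model, against 36.1 in the wildtype model, and Vwf at 50.4 (knockout) and 53.0 (wildtype). Of 6 macrophage and Langerhans cell markers 1 was expressed. This was Cd68, far above the threshold with 861 in the knockout model, against 1161 in the wildtype model. Pecam1, Cdh5, Adgre1 and Csf1r were below the threshold on both arrays. Of the melanocyte list 3 of 5 were expressed, 2 of them at least 2-fold higher (Mlana, 705 in the knockout model, against 109 in the wildtype model, and Mitf, 464 in the knockout model, against 215 in the wildtype model), while Tyr and Dct were below the threshold. Of the adipocyte list 3 of 4 were expressed, 2 of them at least 2-fold higher, with Fabp4 at 4974 in the knockout model, against 816 in the wildtype model, and Adipoq below the threshold. Smooth muscle (3 of 6 expressed), skeletal muscle (3 of 4) and Schwann cell markers (1 of 4) held 0 genes at least 2-fold apart. Over all expressed genes, 3.81% were higher and 3.36% lower by this size.

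Hemidesmosome partners that could be read were lower in the knockout model. Of 6 anchoring partners, 3 were restored and expressed, all below 0, and Krt14 was at least 2-fold lower, as given above. By this size 3.36% of all expressed genes were lower. Krt14 is also a basal keratinocyte marker, so this list is not independent of the marker counts. Cd151, a tetraspanin that binds integrins α3 and α6, read 763 in the knockout model, against 954 in the wildtype model. Col7a1, the collagen of anchoring fibrils, read 125 in the knockout model, against 154 in the wildtype model. Both were under 2-fold, and their differences, -0.32 for Cd151 and -0.30 for Col7a1, were close to the median probe set gap of 0.24. Col17a1, the transmembrane collagen of the hemidesmosome, was undecided, with a likeliest pair of 310 in the knockout model, against 535 in the wildtype model (probability 0.945, just under the limit), and Krt5 is not analysed here.

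Type IV collagen, the network that nidogens and perlecan bind, was read through few genes. Col4a2, the α2 chain of the common network, read 576 in the knockout model, against 183 in the wildtype model, 3.15-fold higher, and was the 1 of 3 expressed basement membrane collagens at least 2-fold apart. Col4a1, its partner chain, could not be placed, with 80.0 or 800 in the knockout against 196 in the wildtype model, 2.45-fold lower (probability 0.906) or 4.08-fold higher. Col18a1 read 284 in the knockout model, against 163 in the wildtype model, and Col4a5 read 53.2 in the knockout model, against 40.9 in the wildtype model. The remaining restored collagens of this list, Col4a3, Col4a4, Col4a6 and Col15a1, were below the threshold on both arrays.

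Integrin ligands outside the laminins had the highest median of the partner lists, 1.02. Higher by 2-fold or more were 6 of the list's 11 expressed genes, and 0 were lower by this size. The matching shares among all expressed genes were 3.81% higher and 3.36% lower. Fn1, fibronectin, read 2910 in the knockout model, against 712 in the wildtype model, 4.09-fold higher. Tnc, tenascin C, read 5314 in the knockout model, against 1550 in the wildtype model, 3.43-fold higher. Vcam1, a ligand of α4 integrins, was 2.90-fold higher, with 327 in the knockout model, against 113 in the wildtype model. Col1a1 (2.45-fold) and Thbs2, thrombospondin 2 (2.28-fold), were higher too. Madcam1 read 93.7 in the knockout model, against 46.3 in the wildtype model, under the threshold of 46.4, so it is given no fold. Its difference is nonetheless the list's median of 1.02, and it is 1 of the 6 genes counted. Cdh1, E-cadherin, the ligand of an integrin of lymphocytes, was the 1 gene below 0, with 725 in the knockout model, against 1428 in the wildtype model. The list holds interstitial collagens that are also fibroblast markers, so it is not independent of the marker counts.

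Linkers from integrins to actin went both ways, with 3 of 18 expressed genes at least 2-fold higher, 1 lower and a median of 0.26. By the same size, 3.81% of all expressed genes were higher and 3.36% lower. Kindlins and tensins, which bind integrin β tails, differed within their families. Fermt2, kindlin 2, the form of fibroblasts and most other tissues, read 457 in the knockout model, against 138 in the wildtype model, higher by 1.72 on the log2 scale. Fermt1, kindlin 1, the epidermal form, read 262 in the knockout model, against 379 in the wildtype model, 1.45-fold lower. Tns2 was 3.11-fold higher, with 870 in the knockout model, against 280 in the wildtype model, and Tns4 2.19-fold lower, with 394 in the knockout model, against 862 in the wildtype model. Flnc, filamin C, an actin crosslinker, read 303 in the knockout model, against 111 in the wildtype model, 2.72-fold higher.

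**Figure D3:**
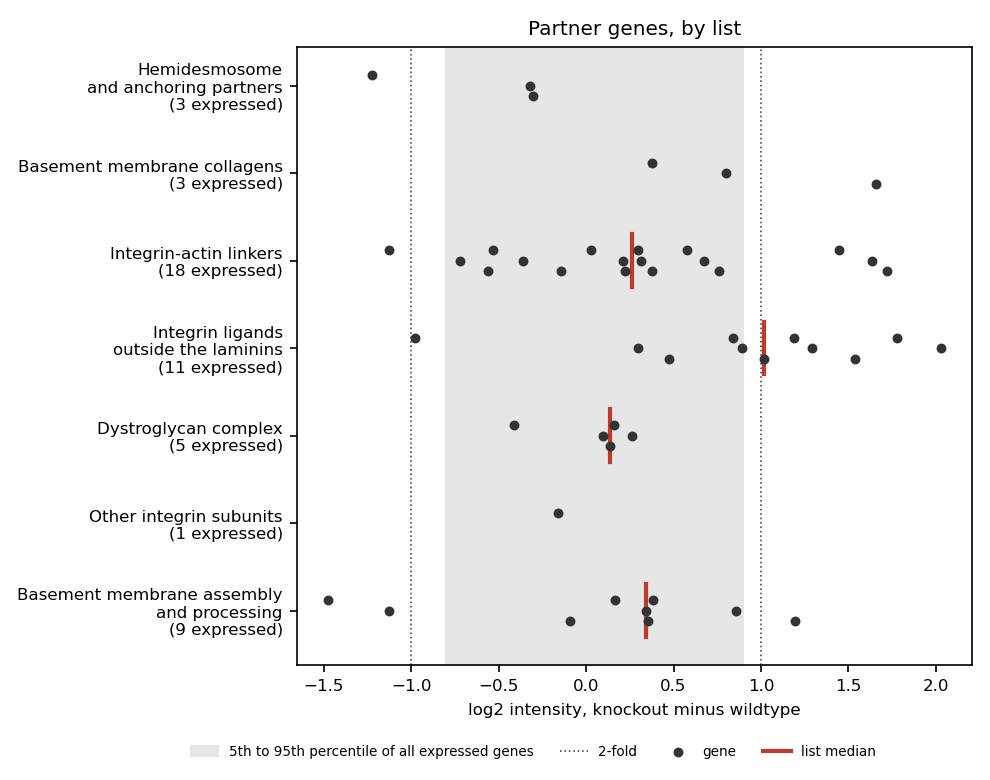
Log2 intensity of the knockout minus the wildtype model for expressed genes of 7 partner lists, 1 point a gene, with the median as a bar for lists of over 3 genes and the 5th to 95th percentile of all expressed genes shaded. The integrin ligands reach 2.03 (Fn1), and the lowest point is Grip1 at -1.48.

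Among genes of basement membrane assembly and processing, 1 of 9 expressed genes was at least 2-fold higher and 2 were lower, with a median of 0.34. By the same size, 3.81% of all expressed genes were higher and 3.36% lower. Sparc, a collagen-binding glycoprotein, read 2206 in the knockout model, against 965 in the wildtype model, 2.29-fold higher. Grip1, given above, was lower, and Ntn4, a netrin that binds laminin γ1, read 34.2 in the knockout model, against 74.6 in the wildtype model. Bmp1, whose protease trims laminin and procollagen chains, read 2183 in the knockout model, against 1207 in the wildtype model, 1.81-fold higher. Genes of the dystroglycan complex, a laminin receptor that is not an integrin, had 0 of 5 expressed genes at least 2-fold apart, with a median of 0.14, and 3 more, Dag1, Sgce and Dtna, were undecided. Of 6 further integrin subunits, mostly of leukocytes and platelets, Itga2b was the 1 expressed, with 63.5 in the knockout model, against 71.0 in the wildtype model.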

How the data were processed

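Biotin-labelled sense-strand cDNA, made from total RNA with kits of Ambion and Affymetrix per the labels' protocols, was hybridised to 1 array a model. Neither the software nor the normalization behind the deposited values was stated. The deposited values are linear probe set intensities, but 67457 of 67586 lacked their decimal point. A place was possible if the resulting number, between 18 and 20000, was written as single precision writes it and was 2 raised to a single-precision exponent. This left 1 place on both arrays for 20952 of 33793 probe sets. The others were weighed by the joint distribution of mean level and absolute difference (25 rounds of expectation maximisation), and 31852 probe sets whose likeliest pair reached a probability of 0.95 entered, with 47.5 expected to be misplaced.

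In 33793 simulated probe sets 63 of 32025 restored ones were misplaced, 20 of them among the 45 restored of 50 seeded at 3.3 log2, close to a shift of 1 digit. Simulated levels, and differences other than the seeded ones, were drawn with small noise from restored probe sets only. Undecided probe sets are thus not represented, and the simulated share misplaced may be too low. Of 1330 simulated probe sets at least 2-fold apart, 69.8% were restored (62 of them misplaced), so large differences are undercounted. In all, 5 settings of bin width and bin prior, run on the real table as well, were compared, and the one with the fewest simulated misplacements was kept (63, against 68 to 74).

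Each gene is read through its probe set of highest mean. Array medians were 46.2 (knockout) and 46.7 (wildtype), and nothing further was normalized. All 38 members matched RefSeq (assembly GRCm38.p6) by Entrez identifier. With 1 array a group there is no test, and the 2 arrays limit the precision, so genes are counted by size, at least 2-fold. The members, groups, partner and marker lists were chosen with earlier results of these data known. Named by rule are all members, Itih5 and partner list genes at least 2-fold apart. Marker genes and further partner genes were named after their values were seen. Normalization, filter, pseudocount, probe set rule, fold, grouping and restoration were varied. Python 3.11.15, NumPy 2.4.6, pandas 2.3.3, SciPy 1.17.1 and Matplotlib 3.10.9 were used.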

Additional observations from a re-analysis of the deposited data

How the results depend on the processing

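Members at least 2-fold higher numbered 2 and lower ones 3 under quantile normalization, median centring, no filter, a pseudocount of 16, probe sets averaged, a minimum probability of 0.99, 4 other bin settings of the restoration, and with every member counted whose difference was decided whatever its level. The last 2 kinds were chosen after seeing the data. With 1 possible place only, 1 of 20 was higher (3.71% of all expressed genes at that setting). With every likeliest place 5 of 34 were higher (4.93% of all), and at the 75th percentile filter 1 of 16 was lower (4.88% of all). Of 29, a 1.5-fold threshold gave 7 higher (11.6% of all) and 5 lower (8.36% of all), and a 3-fold one 0 higher (0.99% of all) and 0 lower (1.45% of all). The hemidesmosomal median of -0.55 moved to -0.22 with 1 possible place, with a minimum probability of 0.99, with bins of 1.0 and 0.5 (each without Lama3), at every likeliest place and with decided differences (both with Itgb4 added), and to -0.30 as a mean. The mesenchymal median of 0.57 moved to 0.41 without a filter, 0.45 with the pseudocount, 0.85 at every likeliest place and 1.07 (2 genes) at the 75th percentile. The gap between these medians, 1.12, became 0.97 without a filter, 0.98 with the pseudocount, 0.79 at a probability of 0.99, with decided differences or with bins of 1.0 and 0.5, 0.89 with 1 possible place, 1.01 in wider groups, 0.92 as means and 1.62 at the 75th percentile, and kept its direction in each. Of 379 values of single members under alternatives, 0 changed by as much as 0.25 log2, the spread between probe sets of a gene. That tolerance was chosen after seeing the data, and medians were called moved at a stricter 0.1. The 0 was largely fixed in advance. Filters leave a gene's own difference as it is, and restoration settings alter it only where a place or probe set changes. The pseudocount shifted some members by more than 0.1, such as Lamc3 from -1.31 to -1.07 and Fras1 from -1.28 to -1.06. No paired analysis was possible because there is only 1 model of each genotype, which also means that none could be left out. Signals near the background are compressed, and a difference near 3.3 log2 can be hidden where several places are possible.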
